A study of Oryza sativa Indica Group with 45 samples.

Results

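The genes described here carry silicon into and through the rice plant: NIP2-1 (also called Lsi1, gene ID 4330713), Lsi2 (also SIET1, gene ID 4331328) and NIP2-2 (also Lsi6, gene ID 4340558). They were chosen by name, as the genes whose RefSeq symbol or synonym is NIP2-1, NIP2-2 or Lsi2 and which the annotation of the array pairs with a probe set. They are 3 of the 17905 genes with a probe set, each gene is read by 1 probe set, and all 3 probe sets passed the filter on low values. The probe set of NIP2-2 carries the suffix with which Affymetrix marks probes that may also bind other transcripts.

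NIP2-1 and NIP2-2 are channels of the NIP subfamily of aquaporins that let undissociated silicic acid cross the plasma membrane, and they also pass arsenite. In rice roots NIP2-1 sits on the outer side of exodermal and endodermal cells and lets silicic acid in, while Lsi2, an efflux transporter unrelated to the channels, sits on the inner side of the same cells and drives it on towards the xylem. NIP2-2 is known from xylem parenchyma of leaf sheaths and blades, where it takes silicic acid out of the xylem sap, and from nodes, which were not sampled here.

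Expression was measured on Affymetrix Rice Genome Arrays in the indica rice hybrid MRP5401, its male parent PR319 (R line) and its female parent PMS80 (B line). Each genotype gave roots of plants of 40 to 60 days, called mature here, roots of seedlings of 14 days, called young, leaves of both ages, and flag leaves of plants of 90 days, with 3 biological replicates in each of the 15 groups. Per the labels, sterilized seeds were raised hydroponically in RGM medium at 28 ± 2 °C, and roots were cut from shoots before freezing. No group was treated, and the same growth text stands beside the samples of the older plants. The sources used here do not say whether the medium held silicon or at what hour tissue was taken. Each array read RNA of a whole organ, so fewer cells of a type and less RNA per cell cannot be told apart.

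Signals are given as log2 of the deposited intensity, on which a difference of 1 is a 2-fold change, and a group mean under 5 is called near background. Where the lower of the compared means was under 5, the difference is a lower bound computed with that mean set to 5. The p beside such a bound belongs to the difference as fitted, without this setting. Errors beside means are SD over 3 arrays and errors beside differences are SE of the fit, which pools the spread of all 15 groups. A difference passed where its p, adjusted over all 24130 tested probe sets, was under 0.05, and the share of these probe sets that passed is given beside each comparison. Signals of different probe sets are not compared with each other.

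Arrays had median intensities of 6.72 to 7.90 on the linear scale and correlated with their own group at 0.977 to 0.995 on average. The young leaf arrays of the R line stood apart, with weights of 0.233 to 0.487 where limma estimated the reliability of arrays and with spike-in signals of 12.8 ± 0.43, while young leaves of the hybrid had 10.87 ± 0.25 and those of the B line 11.74 ± 0.51 (SD, n = 3 each). The 14 leaf markers, genes of photosynthesis and chlorophyll synthesis, averaged 12.59 to 13.48 in the leaf groups and 3.21 to 3.30 in the mature root groups, where 13 of 14 were under 5. In young roots they averaged 10.49 ± 0.31 in the hybrid, 8.31 ± 0.42 in the R line and 8.41 ± 0.64 in the B line (SD, n = 3 each), and 11 to 13 of 14 reached 5. The 12 root markers, mostly genes of nutrient and water uptake, averaged 5.02 to 7.02 in the root groups and 3.42 to 4.23 in the leaf groups, where 0 to 4 of 12 reached 5.

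NIP2-1 had by far its highest signal in young roots. It read 14.73, 14.65 and 14.63 in young roots of the hybrid, 14.30, 14.46 and 14.50 in those of the R line, and 14.47, 14.66 and 14.39 in those of the B line. In mature roots it read 9.82, 8.55 and 10.02 in the hybrid, 10.48, 10.39 and 10.499 in the R line, and 10.01, 10.36 and 9.41 in the B line. All 9 young root arrays lay above all 9 mature root arrays, and the second hybrid array was the lowest of the mature roots.

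NIP2-1 was also well above background in leaves. Its signal was 9.88, 10.28 and 10.18 in young leaves of the hybrid, 11.004, 10.71 and 10.27 in those of the R line, and 10.35, 10.29 and 9.67 in those of the B line. In mature leaves it was 10.03, 10.08 and 9.98 in the hybrid, 9.95, 9.69 and 10.09 in the R line, and 8.92, 9.29 and 9.34 in the B line. The B line lay below the other genotypes on every mature leaf array. In flag leaves NIP2-1 read 7.66, 7.97 and 7.89 in the hybrid, 6.80, 6.50 and 6.94 in the R line, and 7.58, 8.16 and 7.32 in the B line. Every flag leaf array lay below every array of the younger leaves, and the R line was lowest among flag leaves without overlap.

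Lsi2 was a root signal throughout. In young roots it read 13.35, 13.19 and 13.23 in the hybrid, 13.04, 13.08 and 13.13 in the R line, and 13.00, 13.21 and 13.16 in the B line. In mature roots it read 8.77, 7.92 and 8.54 in the hybrid, 8.23, 8.84 and 8.91 in the R line, and 8.80, 10.21 and 8.82 in the B line. Root ages did not overlap, and the second B line array was the highest of the mature roots. All 27 leaf arrays read between 2.41 and 2.53, near background, so the leaf groups have no order for Lsi2.

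NIP2-2 ran the other way, with its higher signals in leaves. It read 10.17, 10.03 and 10.21 in young leaves of the hybrid, 10.61, 10.47 and 10.78 in those of the R line, and 10.35, 10.13 and 10.27 in those of the B line. In mature leaves it read 10.41, 9.90 and 11.08 in the hybrid, 9.67, 9.87 and 10.4996 in the R line, and 10.15, 10.64 and 10.51 in the B line. Young and mature leaves overlapped. In flag leaves NIP2-2 read 7.86, 8.66 and 8.88 in the hybrid, 6.66, 6.73 and 7.43 in the R line, and 7.63, 9.33 and 8.24 in the B line, and all 9 of these arrays lay below the 18 arrays of the younger leaves.

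In roots NIP2-2 was low and scattered. Mature roots read 6.80, 4.62 and 6.64 in the hybrid, 8.72, 8.29 and 7.97 in the R line, and 6.39, 4.12 and 5.88 in the B line. Young roots read 6.72, 6.27 and 7.40 in the hybrid, 4.80, 7.95 and 8.18 in the R line, and 6.70, 6.79 and 7.34 in the B line. The R line lay above the other genotypes on all its mature root arrays, while its first young root array was far below the other 2. Among mature roots the second array of the hybrid and that of the B line fell under 5.

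**Figure D1:**
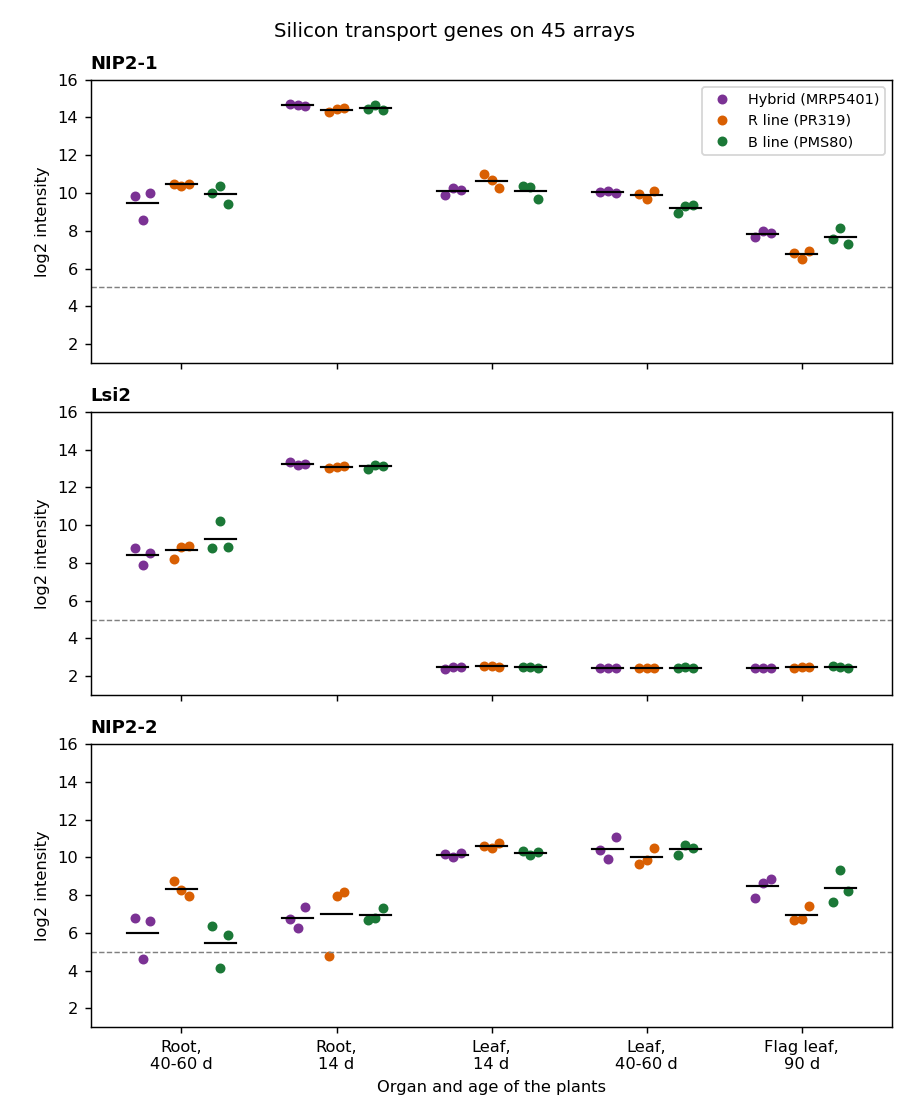
Log2 intensity of NIP2-1, Lsi2 and NIP2-2 on each of 45 arrays by organ and age, with the hybrid, R line and B line side by side, bars at the mean of 3 arrays and a dashed line at 5, below which a signal is near background. NIP2-1 and Lsi2 stand highest in young roots, Lsi2 lies near 2.5 in all leaves, and NIP2-2 lies near 10 in young and mature leaves.

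Between organs of seedlings, all 3 genes differed. Averaged over the genotypes, NIP2-1 was higher by 4.24 ± 0.15 in young roots than in young leaves (18.9-fold, adjusted p = 1.53e-23), and Lsi2 was higher by at least 8.15, or 285-fold (adjusted p = 1.28e-37). NIP2-2 was lower in young roots, with a difference of -3.43 ± 0.35 (10.8-fold, adjusted p = 4.19e-11). In this comparison 81.3% of tested probe sets passed, so passing alone sets no gene apart. The median difference of all tested probe sets was 0.41, and 0.06 after quantile normalization. Rises and falls cancel in this median, so it shows a general shift and not the size of a usual difference.

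Each genotype showed the seedling difference. NIP2-1 was higher in young roots by 4.56 ± 0.26 in the hybrid, 3.76 ± 0.26 in the R line and 4.40 ± 0.26 in the B line, where 62.4%, 74.3% and 70.9% of tested probe sets passed. NIP2-2 differed by -3.34 in the hybrid, -3.64 in the R line and -3.31 in the B line, each ± 0.60, and Lsi2 was higher by at least 8.26, 8.08 and 8.12 in hybrid, R line and B line. Leaf markers were present in the young root RNA, most in the hybrid, and their part in these differences was not tested. Root markers averaged under 5 in all leaf groups, where 0 to 4 of 12 reached 5. Lsi2 read at most 2.53 on the leaf arrays on which NIP2-1 read 6.50 to 11.004. Any part of root tissue in the leaf signals was not tested.

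In plants of 40 to 60 days the pattern split. Lsi2 was higher in mature roots than in mature leaves by at least 3.78 (13.8-fold, adjusted p = 5.76e-32), and NIP2-2 was lower there, with a difference of -3.70 ± 0.35 (13.0-fold, adjusted p = 4.96e-12). NIP2-1 did not pass: its difference was 0.24 ± 0.15, with a 95% interval of -0.07 to 0.55 (adjusted p = 0.134). The share passing was 86.4% and the median of all tested probe sets 0.35, or 0.13 after quantile normalization. Without the second mature root array of the hybrid NIP2-1 passed at 0.39 (adjusted p = 0.00507), and without the third of the B line at 0.33 (adjusted p = 0.0427).

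The organ difference of NIP2-1 in older plants was not the same in each genotype. It was -0.57 ± 0.26 in the hybrid (adjusted p = 0.0478), 0.55 ± 0.26 in the R line (adjusted p = 0.0573) and 0.75 ± 0.26 in the B line (adjusted p = 0.0107), with 76.6%, 75.7% and 75.8% of probe sets passing. The hybrid differed from the R line by -1.12 ± 0.37 (adjusted p = 0.0189; 33.1% of probe sets passed) and from the B line by -1.32 ± 0.37 (adjusted p = 0.00833; 23.9% passed). The R line and the B line differed by -0.20 ± 0.37 (adjusted p = 0.689). These comparisons of mature root minus leaf between genotypes, for each gene, were added after the values were seen. The hybrid's own call was narrow: it was lost without any 1 of its mature leaf arrays (adjusted p = 0.071 to 0.0981), without the filter on low values (0.0782), on the compared stages alone (0.103) and with values under 32 set to 32 (0.0503). Without its second mature root array its own organ difference was -0.11 (adjusted p = 0.686), the difference from the R line -0.66 (adjusted p = 0.111) and that from the B line -0.86 (adjusted p = 0.0514). On the compared stages alone the difference from the R line had an adjusted p of 0.0597. In the B line the call was lost without its second mature root array, at 0.53 (adjusted p = 0.0943), or its first mature leaf array, at 0.61 (adjusted p = 0.0592).

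For NIP2-2 the organ difference was smaller in the R line. Mature roots minus mature leaves gave -4.44 ± 0.60 in the hybrid, -1.69 ± 0.60 in the R line and -4.97 ± 0.60 in the B line, and the R line's call was lost without the third of its mature leaf arrays (-1.45, adjusted p = 0.0532). The hybrid differed from the R line by -2.75 ± 0.85 (adjusted p = 0.0117), and the R line from the B line by 3.28 ± 0.85 (adjusted p = 0.00171), a comparison that 49.0% of probe sets passed. Without the second mature root array of the hybrid, the first of these was -2.06 (adjusted p = 0.0576). For Lsi2 the excess over leaves, whose means were all near background, was at least 3.41 in the hybrid, 3.66 in the R line and 4.28 in the B line. The difference between the hybrid and the B line in this excess was -0.87 with leaf means set to 5, and -0.85 ± 0.30 as fitted (adjusted p = 0.0385). This call was lost in 8 of the 12 fits that left out an array, among them those without the second mature root array of the hybrid (-0.60, adjusted p = 0.161) or of the B line (-0.38, adjusted p = 0.200). It was also lost with only the mature root and mature leaf arrays fitted (adjusted p = 0.179).

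With age, roots lost signal of NIP2-1 and Lsi2 but not detectably of NIP2-2. Averaged over the genotypes, mature minus young roots gave -4.58 ± 0.15 for NIP2-1 (24.0-fold lower, adjusted p = 2.58e-24) and -4.37 ± 0.12 for Lsi2 (20.7-fold lower, adjusted p = 2.63e-26). Among the 14577 probe sets with means of 5 or more in every root group, 23 fell by more than NIP2-1 and 34 by more than Lsi2. Probe sets that fell under 5 in mature roots, as most leaf markers did, are not in this ranking. In this comparison 77.1% of tested probe sets passed and their median was -0.20, or -0.07 after quantile normalization. The 95% intervals overlapped for the influx channel (-4.89 to -4.28) and the efflux transporter of the root (-4.62 to -4.12).

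The fall held in each genotype. NIP2-1 differed by -5.21 ± 0.26 in the hybrid, -3.96 ± 0.26 in the R line and -4.58 ± 0.26 in the B line. Lsi2 differed by -4.85 ± 0.21 in the hybrid, -4.42 ± 0.21 in the R line and -3.84 ± 0.21 in the B line. Of all tested probe sets 64.9% passed in the hybrid, 66.7% in the R line and 59.8% in the B line. The fall of NIP2-1 was larger in the hybrid than in the R line, with a difference of -1.25 ± 0.37 (adjusted p = 0.00891; 33.9% of probe sets passed), and -0.79 without the second mature root array of the hybrid (adjusted p = 0.0546). The fall of Lsi2 was larger in the hybrid than in the B line, with -1.003 ± 0.30 (adjusted p = 0.0119; 26.9% passed). This became -0.54 without the second mature root array of the B line (adjusted p = 0.0614) and -0.76 without that of the hybrid (adjusted p = 0.0617). The call was also lost with only the root arrays fitted (adjusted p = 0.106). Of the 14 leaf markers 13 were lower in mature than in young roots, with a median of -5.71, and their part in these falls was not tested. Of the 10 tested root markers 5 were higher and 4 lower in mature roots. Between root ages 77.1% of all tested probe sets passed.

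Averaged over the genotypes, NIP2-2 did not change detectably with root age. The difference was -0.30 ± 0.35, with a 95% interval of -1.003 to 0.40 (adjusted p = 0.435). It was -0.77 ± 0.60 in the hybrid (adjusted p = 0.261), 1.35 ± 0.60 in the R line (adjusted p = 0.0464) and -1.48 ± 0.60 in the B line (adjusted p = 0.0329). The R line differed from the B line by 2.83 ± 0.85 (adjusted p = 0.00621), where 47.7% of probe sets passed, and the hybrid from the R line by -2.12 ± 0.85 (adjusted p = 0.0502). The difference between the parents was 1.74 without the first young root array of the R line (adjusted p = 0.0472), and it was lost with arrays weighted (1.17, adjusted p = 0.0889) and with the spike-in signal as a covariate (2.19, adjusted p = 0.0618). The call in the R line was lost in 3 of 6 fits that left out an array, without the filter on low values, with arrays weighted, on the compared stages alone and with the spike-in covariate. Its low first young root array had an array weight of 0.3. Without that array the change in the R line was 0.26 (adjusted p = 0.702), and the average over genotypes became -0.66 and passed (adjusted p = 0.0343). With the R line left out of the average, an alternative chosen after the data were seen, NIP2-2 fell by 1.13 (adjusted p = 0.0177). The call in the B line was lost in 3 of 6 fits that left out an array, with the smallest change, -0.81, without its second mature root array (adjusted p = 0.291). Of the alternatives that kept all arrays of the B line, only the replicate block kept its call.

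The interaction of organ and age was likewise added after the values were seen. The root excess of NIP2-1 over leaves was smaller at 40 to 60 days than at 14 days, with a difference of -3.998 ± 0.21 (adjusted p = 4.29e-18), in a comparison that 78.8% of probe sets passed and whose median over all of them was -0.28. For Lsi2 this difference was -4.37 with leaf means set to 5, and -4.33 ± 0.17 as fitted (adjusted p = 1.5e-21), and rests on the roots, since its leaf means were near background at both ages. NIP2-2 showed -0.27 ± 0.49 (adjusted p = 0.623), with a 95% interval of -1.26 to 0.73.

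**Figure D2:**
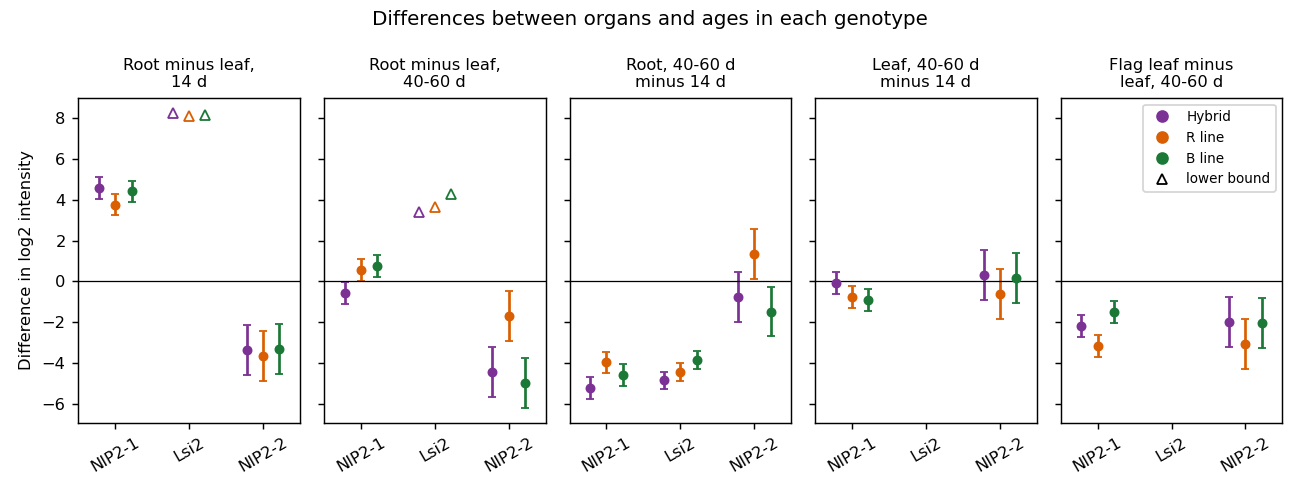
Differences in log2 intensity between organs and ages for each gene in the hybrid, R line and B line, with 95% intervals from the limma fit and open triangles for lower bounds. NIP2-1 and Lsi2 are far above 0 in seedling roots against leaves and far below 0 in mature against young roots, and NIP2-1 lies near 0 between organs at 40 to 60 days. Lsi2 is left out of the leaf comparisons because all its leaf means were near background.

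Among leaves, the main change came with the flag leaf. Mature minus young leaves gave -0.59 ± 0.15 for NIP2-1 (adjusted p = 9.17e-04) and -0.03 ± 0.35 for NIP2-2 (adjusted p = 0.956), where 65.7% of probe sets passed. Flag minus mature leaves gave -2.28 ± 0.15 for NIP2-1 (4.86-fold lower, adjusted p = 2.42e-15) and -2.37 ± 0.35 for NIP2-2 (5.16-fold lower, adjusted p = 2.32e-07), where 64.2% passed. Both NIP2 channels fell, with 95% intervals of -2.59 to -1.97 and -3.07 to -1.66, while the median of all tested probe sets was within 0.01 of 0. Among 12702 probe sets with means of 5 or more in all 9 leaf groups, 315 fell by more than NIP2-1 and 285 by more than NIP2-2. Probe sets that fell under 5 in flag leaves are not in this ranking.

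By genotype, mature minus young leaves gave -0.08 ± 0.26 for NIP2-1 in the hybrid (adjusted p = 0.870), -0.75 ± 0.26 in the R line (adjusted p = 0.0136) and -0.92 ± 0.26 in the B line (adjusted p = 0.00387). The shares of probe sets passing were 52.8% in the hybrid, 57.6% in the R line and 46.0% in the B line. The R line's call was lost with the spike-in signal as a covariate (-0.23, adjusted p = 0.687), without its first young leaf array (-0.58, adjusted p = 0.0899) and without its second mature leaf array (-0.64, adjusted p = 0.0648). NIP2-2 had 0.32, -0.61 and 0.18, each ± 0.60, in the hybrid, R line and B line, and none passed.

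Flag leaves were lower than mature leaves in every genotype. NIP2-1 differed by -2.19 ± 0.26 in the hybrid, -3.16 ± 0.26 in the R line and -1.498 ± 0.26 in the B line. NIP2-2 differed by -1.996 in the hybrid, -3.07 in the R line and -2.03 in the B line, each ± 0.60. The shares of probe sets passing were 48.1% in the hybrid, 51.4% in the R line and 49.9% in the B line. For NIP2-1 the R line differed from the B line by -1.66 ± 0.37 (adjusted p = 0.00507), where 4.41% of probe sets passed. The hybrid differed from the R line by 0.97 ± 0.37 (adjusted p = 0.148; 4.76% passed) and from the B line by -0.69 ± 0.37 (adjusted p = 0.362; 3.81% passed). NIP2-2 did not pass in any of these, with -1.04 ± 0.85 between the R line and the B line (adjusted p = 0.686). These comparisons of flag minus mature leaf between genotypes were added after the values were seen.

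Genotypes did not differ detectably in young roots. For NIP2-1 the hybrid differed by 0.25 ± 0.26 from the R line and 0.17 ± 0.26 from the B line, with 95% intervals of -0.28 to 0.79 and -0.37 to 0.70. For Lsi2 these differences were 0.18 ± 0.21 and 0.14 ± 0.21, and for NIP2-2 they were -0.18 ± 0.60 and -0.14 ± 0.60. The R line and the B line differed by -0.09 ± 0.26 for NIP2-1, -0.04 ± 0.21 for Lsi2 and 0.04 ± 0.60 for NIP2-2. None of the 3 genes passed against a parent, between the parents or against the mid-parent, which is the average of the parents' log2 means. The share of probe sets that passed was 20.7% for hybrid against R line, 25.7% for hybrid against B line, 28.6% for R line against B line and 20.3% against the mid-parent. With arrays weighted by their estimated reliability, NIP2-2 did pass, at -1.30 between the hybrid and the R line (adjusted p = 0.00387) and at 1.02 between the R line and the B line (adjusted p = 0.0134).

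In mature roots each gene passed between some genotypes in the fit of all arrays, in a pattern of its own. NIP2-1 was lower in the hybrid than in the R line, with -0.99 ± 0.26 (1.99-fold, adjusted p = 0.00264; 39.8% of probe sets passed). It differed by -0.47 ± 0.26 from the B line (adjusted p = 0.175; 34.3% passed) and by 0.53 ± 0.26 between the R line and the B line (adjusted p = 0.0835; 58.9% passed). Against the mid-parent the hybrid was lower, with -0.73 ± 0.23 (adjusted p = 0.0173; 23.0% passed). Both calls rest on the second hybrid array at 8.55: without it the difference from the R line was -0.54 (adjusted p = 0.0740) and that from the mid-parent -0.27 (adjusted p = 0.435). With only the mature root arrays fitted, both calls were lost as well (adjusted p = 0.0811 and 0.178). The difference from the B line passed without the third hybrid array (-0.75, adjusted p = 0.0363), and that between the parents without the second B line array (0.74, adjusted p = 0.0256).

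Lsi2 instead had its highest mean among mature roots in the B line. The hybrid was lower than the B line, with -0.87 ± 0.21 (1.82-fold, adjusted p = 0.00170), and so was the R line, with -0.62 ± 0.21 (1.53-fold, adjusted p = 0.0136). The hybrid and the R line differed by -0.25 ± 0.21 (adjusted p = 0.383), and the hybrid was lower than the mid-parent, with -0.56 ± 0.19 (adjusted p = 0.0264). The second B line array, at 10.21, weighs in the differences that involve the B line: without it the hybrid differed from the B line by -0.40 (adjusted p = 0.0496), the R line from the B line by -0.15 (adjusted p = 0.449) and the hybrid from the mid-parent by -0.33 (adjusted p = 0.0615). The mid-parent call was also lost without the second hybrid array (-0.31, adjusted p = 0.318), and the call between the parents without the first R line array (-0.40, adjusted p = 0.138). With arrays weighted, the difference between the hybrid and the B line was -0.42 (adjusted p = 0.055). With only the mature root arrays fitted, none of these calls held. Adjusted p was then 0.152 for hybrid minus B line, 0.233 for R line minus B line and 0.324 for hybrid minus mid-parent. The SE of ± 0.21 pools all 15 groups, with SD of 0.003 to 0.055 in the near-background leaf groups. In mature roots the SD was 0.44 in the hybrid, 0.37 in the R line and 0.81 in the B line.

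Among mature roots NIP2-2 was highest in the R line, averaging 6.02 ± 1.21 in the hybrid, 8.33 ± 0.38 in the R line and 5.46 ± 1.19 in the B line (SD, n = 3 each). The hybrid was lower than the R line, with -2.305 ± 0.60 (4.94-fold, adjusted p = 0.00232), and the R line was higher than the B line by 2.86 ± 0.60 (7.27-fold, adjusted p = 1.12e-04). The hybrid and the B line differed by 0.56 ± 0.60 (adjusted p = 0.527), and the hybrid and the mid-parent by -0.87 ± 0.52 (adjusted p = 0.246). With any 1 array of the compared groups left out, the difference between hybrid and R line kept passing (-2.70 to -1.61), but with the spike-in signal as a covariate it was -1.68 (adjusted p = 0.0835). Root markers also had their highest mean in the R line: they averaged 5.898 ± 0.12 in mature roots of the hybrid, 7.02 ± 0.09 in the R line and 5.64 ± 0.36 in the B line. Of the 10 tested, 7 were higher in the R line than in the B line, where 58.9% of all tested probe sets passed. Against the R line, 5 were lower in the hybrid, where 39.8% passed. The part of root markers in the NIP2-1 and NIP2-2 differences was not tested.

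In young leaves none of the genes passed between genotypes. NIP2-1 differed by -0.54 ± 0.26 between the hybrid and the R line (adjusted p = 0.0819; 51.4% of probe sets passed), by 0.01 ± 0.26 between the hybrid and the B line (adjusted p = 0.992; 36.4% passed) and by 0.56 ± 0.26 between the R line and the B line (adjusted p = 0.0827; 46.3% passed). Against the mid-parent the hybrid had -0.27 ± 0.23, where 46.9% of probe sets passed. In hybrid minus R line the median of all tested probe sets was 0.20, and 0.03 after quantile normalization. With quantile normalization NIP2-1 passed, at -0.86 for hybrid against R line (adjusted p = 0.00610) and 0.76 for R line against B line (adjusted p = 0.0152), and it passed at -0.74 (adjusted p = 0.0304) and 0.75 (adjusted p = 0.0302) without the third array of the R line. NIP2-2 differed by -0.48, -0.11 and 0.37, each ± 0.60, in the hybrid against the R line, the hybrid against the B line and the R line against the B line. Its R line arrays read 10.47 to 10.78, above every array of the hybrid and the B line. With only the young leaf arrays fitted, NIP2-2 passed for hybrid against R line (adjusted p = 0.0133) and for R line against B line (adjusted p = 0.0432).

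In mature leaves NIP2-1 was higher in the hybrid than in the B line by 0.85 ± 0.26 (1.80-fold, adjusted p = 0.0312), in a comparison that 10.7% of probe sets passed. The call is narrow, since it was lost in 5 of 6 fits that left out an array of these groups, with differences of 0.72 to 0.93. The spike-in signal of mature leaves was higher in the B line (12.34 ± 0.16) than in the hybrid (11.31 ± 0.16), with SD over 3 arrays. The hybrid and the R line differed by 0.12 ± 0.26 (adjusted p = 0.987; 6.84% passed), and the R line and the B line by 0.72 ± 0.26 (adjusted p = 0.0584; 15.2% passed). Against the mid-parent the hybrid had 0.49 ± 0.23 (adjusted p = 0.269; 4.88% passed). NIP2-2 differed by 0.45, 0.03 and -0.42, each ± 0.60, in hybrid against R line, hybrid against B line and R line against B line, and did not pass.

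In flag leaves the R line had the lowest signal of both channels. NIP2-1 averaged 7.84 ± 0.16 in the hybrid, 6.75 ± 0.22 in the R line and 7.69 ± 0.43 in the B line (SD, n = 3 each). The hybrid was higher than the R line by 1.09 ± 0.26 (2.13-fold, adjusted p = 0.00401; 10.7% of probe sets passed), with 0.97 to 1.19 when any 1 array was left out, all passing. The R line was lower than the B line, with -0.94 ± 0.26 (1.92-fold, adjusted p = 0.0118; 12.7% passed), a call lost without the second B line array (-0.70, adjusted p = 0.130) or the second R line array (-0.82, adjusted p = 0.0738). The hybrid and the B line differed by 0.16 ± 0.26 (11.9% passed), and the hybrid and the mid-parent by 0.62 ± 0.23 (adjusted p = 0.0745; 10.1% passed).

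NIP2-2 had differences of the same sign in flag leaves that did not pass. The hybrid differed from the R line by 1.53 ± 0.60 (adjusted p = 0.105), and the R line from the B line by -1.46 ± 0.60 (adjusted p = 0.120). With arrays weighted, both passed, at 1.69 (adjusted p = 0.00310) and -1.45 (adjusted p = 0.0299). Leaf markers gave no call between the hybrid and the R line in flag leaves for any of 14 genes, where 10.7% of all tested probe sets passed. Between the parents 3 of 14 were higher in the R line than in the B line, where 12.7% passed.

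**Figure D3:**
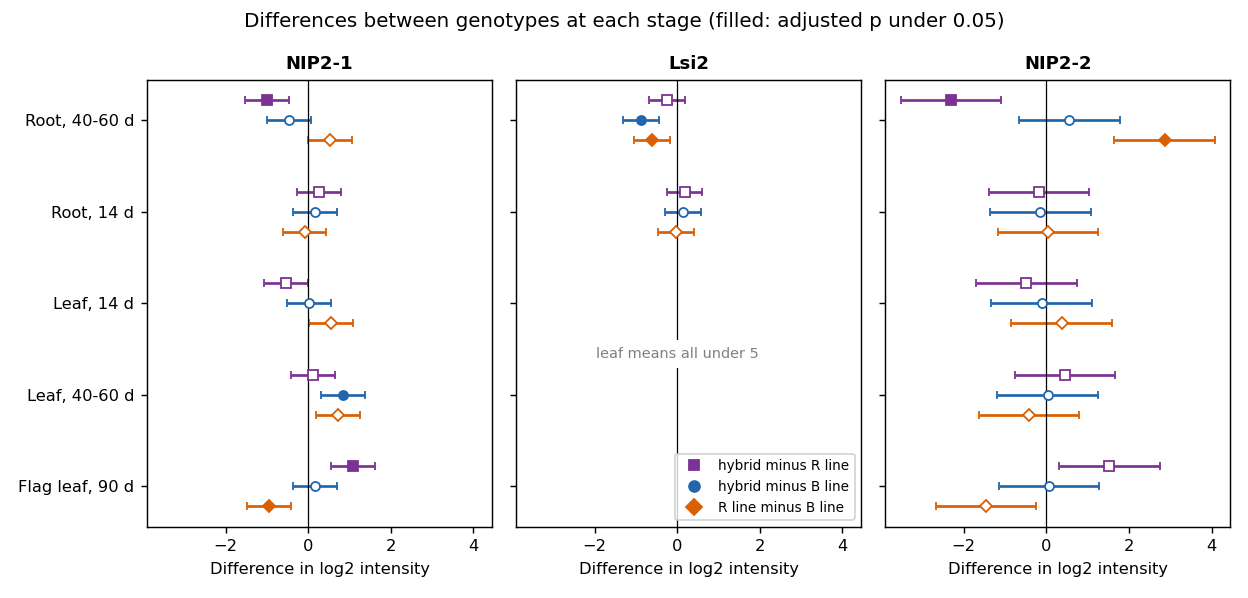
Differences in log2 intensity between genotypes at each organ and age for NIP2-1, Lsi2 and NIP2-2, with 95% intervals from the limma fit and filled symbols where the adjusted p was under 0.05. Calls lie in mature roots for every gene and in mature and flag leaves for NIP2-1, and none lies in young roots or young leaves.

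Most neighbours in the order of the group means overlapped. For NIP2-1, 10 of 14 neighbouring pairs of groups shared part of their range of arrays, and the largest gap, 3.76, lay between young roots of the R line at 14.42 and young leaves of the R line at 10.66. Below it, mature roots, young leaves and mature leaves were mixed between 10.66 and 9.18, and the flag leaf groups followed at 7.84, 7.69 and 6.75. For Lsi2 the order had 3 tiers, young roots at 13.26 to 13.08, mature roots at 9.28 to 8.41 and the 9 leaf groups under 5 without order. For NIP2-2, 13 of 14 neighbouring pairs overlapped, and the single gap, 1.55, separated the young and mature leaf groups (10.62 to 10.01) from flag leaves and roots (8.47 to 5.46).

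Over the 9 leaf group means NIP2-1 and NIP2-2 had a Pearson's r of 0.953, and over the 6 root group means 0.261. Set beside each other on single arrays of a stage, NIP2-1 and NIP2-2 were most alike in flag leaves. There Pearson's r was 0.923 over 9 arrays, and 0.776 for deviations from the group means. In mature leaves it was -0.04 and in young leaves 0.48, with 0.33 for deviations in mature leaves and -0.42 in young leaves. In young roots, where NIP2-1 was at the top of its own range, the NIP2-2 probe set read 4.80 to 8.18, in the lower part of its own. For NIP2-1 and Lsi2, r was 0.493 in mature roots and 0.815 in young roots, and 0.672 and 0.580 for deviations from the group means, over 9 arrays each. The 9 arrays of a stage are 3 from each genotype, no p is given, and whether probes of 1 channel bind the transcript of the other was not tested.

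**Figure D4:**
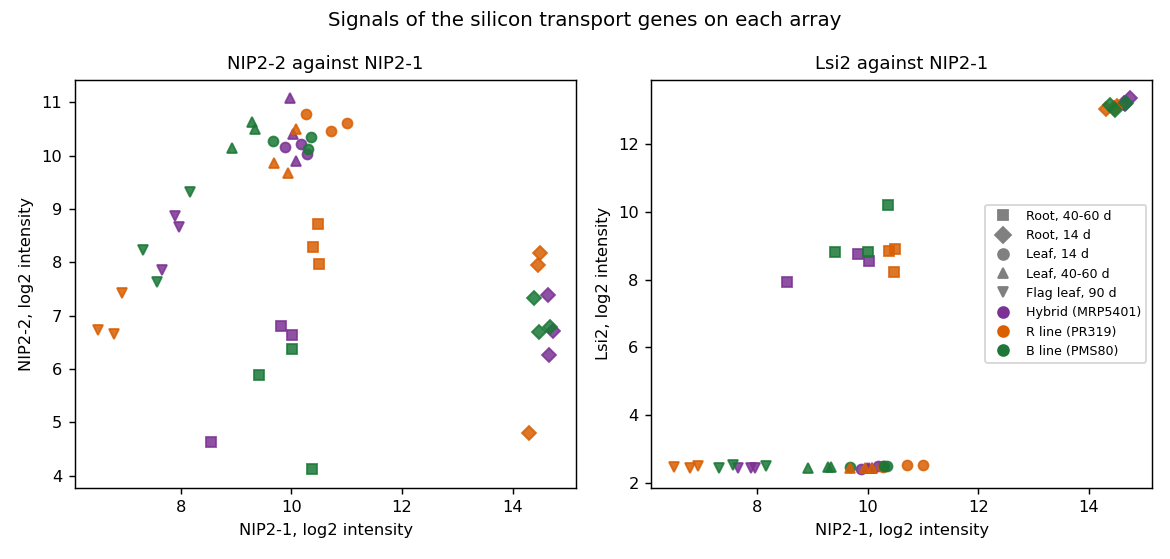
Log2 intensity of NIP2-2 against NIP2-1 (left) and of Lsi2 against NIP2-1 (right) on each of 45 arrays, with symbols for organ and age and colours for the hybrid, R line and B line. Flag leaf arrays fall along a line on the left, and on the right the young root arrays form a compact group far above the mature roots, with all leaf arrays near 2.5 for Lsi2.

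Of the other NIP channels, 3 of 11 listed names had a probe set. NIP1-1, which is known in rice to pass arsenite, averaged 7.86 ± 0.26 in mature roots of the hybrid, 7.41 ± 0.24 in the R line and 7.79 ± 0.75 in the B line (SD, n = 3 each), and its means were under 5 in all other groups. It was thus higher in mature than in young roots by at least 2.68 (adjusted p = 5.97e-21) and higher in mature roots than in mature leaves by at least 2.68 (adjusted p = 2.46e-23), opposite in sign with root age to NIP2-1 and Lsi2. NIP3-1, a boron channel, and NIP4-1 read at most 4.14 and 4.69 on any array and were not tested.

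Of 22 listed names of genes that handle silicon, boron or arsenic, 3 had a probe set and were tested, all of them known for arsenic, which shares the silicon route as arsenite. With root age, where 77.1% of all probe sets passed, 1 rose and 2 fell, with a median of -0.63 against -0.20 for all tested probe sets. PHT1-8, a phosphate transporter that also takes up arsenate, rose by 2.86 ± 0.20 in mature against young roots (adjusted p = 2.97e-15), averaging 13.66 ± 0.38, 13.34 ± 0.24 and 12.88 ± 0.23 in mature roots of the hybrid, R line and B line. These values are from its probe set with the highest mean, which carries the same suffix as that of NIP2-2. Its other probe sets are not given here. ACR2.2 and ACR2.1, which code for arsenate reductases of the Cdc25 type, changed by -1.48 ± 0.13 (adjusted p = 2.66e-12) and -0.63 ± 0.08 (adjusted p = 3.1e-09). Between mature roots and mature leaves (86.4% of all passed) 2 were higher and 1 lower, with a median of 0.60 against 0.35 for all, and between young roots and young leaves (81.3% of all passed) 2 were higher and ACR2.1 had -0.14 ± 0.08 (adjusted p = 0.0775).

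Genes of the Casparian strip and endodermis, the barrier across which NIP2-1 and Lsi2 work, had a probe set for 4 of 17 listed names, and 3 were tested. All 3 were higher in young roots than in young leaves, where 81.3% of all probe sets passed, though for RCN1, an ABC transporter needed for suberin in the root hypodermis, the bound was only 0.03. SHR1, a transcription factor of endodermis formation, averaged 7.16 ± 0.32, 6.89 ± 0.52 and 7.30 ± 0.18 in young roots of the hybrid, R line and B line and under 5 in all mature root groups, so it fell by at least 2.12 (adjusted p = 5.68e-19). CASP1, a protein that marks the site of the Casparian strip, rose by at least 1.10 (adjusted p = 4.13e-09) on the probe set with its highest mean, and its other 2 probe sets were near background in most groups. It averaged 7.42 ± 0.46, 7.86 ± 0.49 and 6.74 ± 0.43 in mature roots and 6.53 ± 0.63, 3.38 ± 1.15 and 7.201 ± 0.69 in young roots of the hybrid, R line and B line. The median change of the 3 genes with root age was -1.67, or -0.03 with means under 5 set to 5, against -0.20 for all tested probe sets, and the 3 genes had no shared direction. SCR1 read at most 5.28 on any array and was not tested.

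Among 1992 other named genes, likeness to each silicon gene was measured as Pearson's r over the 15 group means, with means under 5 set to 5. Closest to NIP2-1 were STAR2 (0.974), a part of a transporter needed for aluminium tolerance, ACR2.2 (0.953), OsZIP6 (0.952), a metal transporter of the ZIP family, the ethylene receptor ERS1 (0.932) and OsUAH (0.924), an enzyme of ureide breakdown. Like NIP2-1, STAR2 was highest in young roots and lowest in flag leaves, with means of 7.92 in mature roots, 11.21 in young roots, 8.29 in young leaves, 8.20 in mature leaves and 6.92 in flag leaves. Closest to Lsi2 were OsPHO1;2 (0.995), a phosphate exporter of the root, the auxin response factor ARF16 (0.992), SDH7 (0.984), a subunit of succinate dehydrogenase, NAP1 (0.972) and FP (0.968), the flavoprotein of the same enzyme. OsPHO1;2 averaged 9.46 in mature roots and 13.32 in young roots.

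Closest to NIP2-2 were CBP1 (0.911), Lip-syn (0.910), the flavonoid genes Cfi (0.886), a chalcone isomerase, and CHS (0.882), a chalcone synthase, and RH2 (0.876). CHS averaged 14.35 in mature leaves and 10.23 in flag leaves. These r values describe shared organ and age patterns over the same 45 arrays, genes are not independent, and no p is given. The lists depended on the groups used: over the 6 root groups alone, 0 of 5 names were the same for each of the 3 genes.

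**Figure D5:**
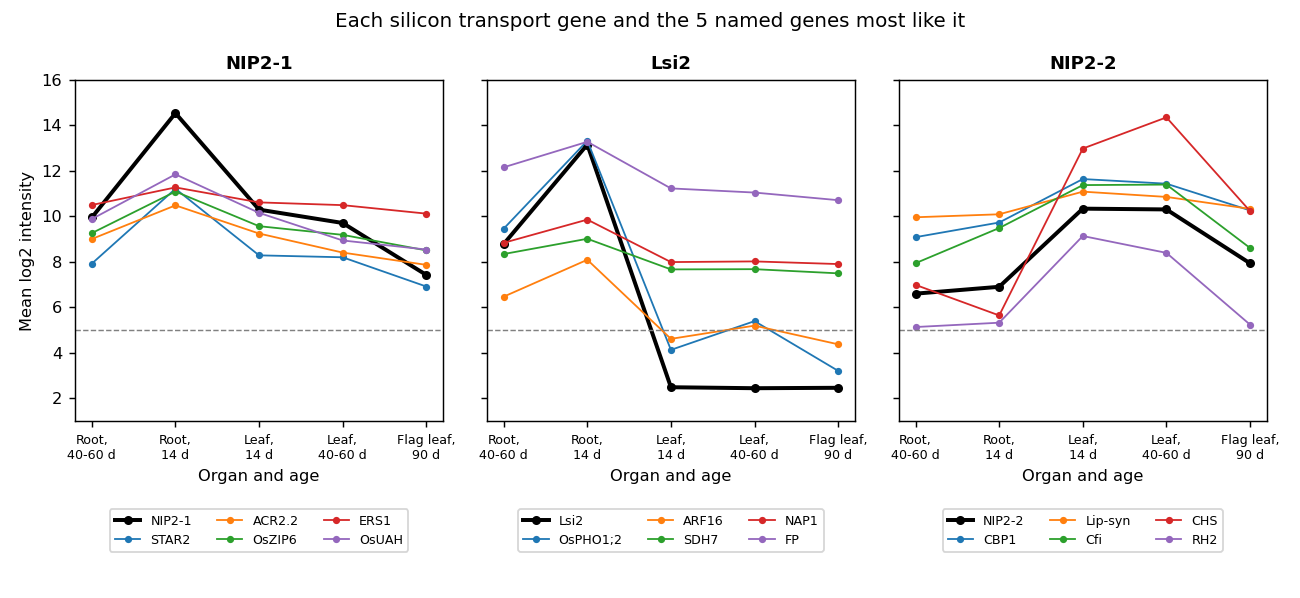
Mean log2 intensity by organ and age, over the 9 arrays of the hybrid, R line and B line, of each silicon gene (black) and the 5 named genes whose group means correlated most with it (colours), with a dashed line at 5. Genes like NIP2-1 and Lsi2 peak in young roots, and those like NIP2-2 are higher in young and mature leaves than in roots.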

How the data were processed

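The authors deposited 1 table of linear intensity values for 57381 probe sets on 45 arrays, made with GCRMA per the submitters' processing notes, a method that corrects background by probe sequence, so that absent transcripts settle at a low level and not at 0. Here these deposited intensities were turned into log2 values (values under 1 set to 1, of which there were 0). Columns of other samples numbered 0. Probe sets were named through the platform's annotation and RefSeq, with 22436 paired with 1 gene and 95 with several. With limma 3.58.1 in R 4.3.3, 15 group means were fitted over all 45 arrays (30 residual degrees of freedom), and p-values were adjusted by Benjamini-Hochberg within each comparison over 24130 probe sets with a mean of 5 or more in at least 1 group, control probe sets left out. The fit was tested on simulated data. The number of arrays limits the precision. Each p-value uses 1 spread per probe set, pooled over all 15 groups of samples labelled biological replicates. Where groups differ in spread, it can misstate the spread in the compared groups.

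The genes and lists were chosen with earlier results of these data known. Named were each silicon gene, up to 4 matched genes per list by the size of the root minus leaf difference at 40 to 60 days, and the 5 genes most like each silicon gene. Alternatives were quantile normalization, no filter on low values, array weights, only the arrays of the compared stages, a replicate block, values under 32 set to 32, the mean spike-in signal as a covariate, a mid-parent from linear means, each array left out, and, added after the data were seen, averages without the R line.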

Additional observations from a re-analysis of the deposited data

Results flagged for a closer look

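Some comparisons differed between groups by a test of the difference itself, with adjusted p-values from limma. Those on the change of roots with age between genotypes were planned. The others were added after values were seen.

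For NIP2-1 the fall with root age was larger in the hybrid than in the R line (-1.249, adjusted p = 0.00891). Its mature root minus leaf difference was lower in the hybrid than in the R line (-1.119, adjusted p = 0.0189) and than in the B line (-1.315, adjusted p = 0.00833). All 3 values share the second mature root array of the hybrid and missed the threshold without it, at -0.79, -0.66 and -0.86. The root excess of NIP2-1 differed between ages (-3.998, adjusted p = 4.29e-18), and its fall in flag leaves was larger in the R line than in the B line (-1.661, adjusted p = 0.00507).

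For NIP2-2 the R line differed from the B line in the change with root age (2.826, adjusted p = 0.00621) and in mature root minus leaf (3.279, adjusted p = 0.00171), and the hybrid differed from the R line in mature root minus leaf (-2.754, adjusted p = 0.0117). The first of these missed the threshold with weighted arrays (1.171, adjusted p = 0.0889) or when spike-in signal was a covariate (2.186, adjusted p = 0.0618), and was 1.736 without the first young root array of the R line. The last missed it when spike-in signal was a covariate (-2.104, adjusted p = 0.104) or without the second mature root array of the hybrid (-2.056, adjusted p = 0.0576). For Lsi2 the fall with root age was larger in the hybrid than in the B line (-1.003, adjusted p = 0.0119). This missed the threshold with only the root arrays fitted (adjusted p = 0.106). Its leaf means were near background, so, as fitted, the change of its root excess with age (-4.327, adjusted p = 1.5e-21) and the difference between the hybrid and the B line in mature root minus leaf (-0.8468, adjusted p = 0.0385) rest on the roots.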

How the results depend on the processing

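No result changed sign past the threshold. The seedling root minus leaf differences, the root age falls of NIP2-1 and Lsi2 and the flag leaf falls of both channels, averaged over genotypes, kept their direction and call under every alternative run. Array weights gave calls for NIP2-1 in mature root minus leaf (0.2935), R minus B line in mature roots (0.4967) and in mature leaves (0.6156), for NIP2-2 in hybrid minus R line (-1.299) and R minus B line (1.023) of young roots and the same pairs in flag leaves (1.692 and -1.45), and ended those of Lsi2 in mature roots for hybrid minus B line (-0.4235) and R minus B line (-0.2634). The spike-in covariate gave calls for NIP2-1 in mature root minus leaf (0.4022) and R minus B line in mature roots (0.7119) and mature leaves (1.075), and ended those in mature roots of NIP2-2 for hybrid minus R line (-1.684) and of Lsi2 for R minus B line (-0.5074). Fitting the compared stages alone ended mature root calls of NIP2-1 for hybrid minus R line (-0.9943) and of Lsi2 for hybrid minus B line (-0.8665) and R minus B line (-0.616), and gave calls for NIP2-1 in R minus B line of mature leaves (0.7231) and for NIP2-2 in young leaves (-0.4809 for hybrid minus R line, 0.3677 for R minus B line). Quantile normalization gave young leaf calls of NIP2-1 (-0.8616 for hybrid minus R line, 0.7646 for R minus B line). Without the level filter NIP2-1 lost its call for hybrid minus B line in mature leaves (0.8475, adjusted p = 0.0576). Without the R line the root age change of NIP2-2 was -1.126 and passed. The cause of these changes was not tested.

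With each array left out in turn, mature root minus leaf of NIP2-1 ranged over 0.1484 to 0.3937, and its mature root differences over -1.273 to -0.5368 (hybrid minus R line), -0.746 to -0.01025 (hybrid minus B line) and 0.2677 to 0.7443 (R minus B line). In young leaves they ranged over -0.7402 to -0.3727 (hybrid minus R line) and 0.3387 to 0.7506 (R minus B line), in mature leaves over 0.7154 to 0.9267 (hybrid minus B line) and in flag leaves over -1.122 to -0.6992 (R minus B line). The root age change of NIP2-2 ranged over -0.6643 to -0.06813 and R minus B line of Lsi2 in mature roots over -0.8533 to -0.1494. Of the 5 genes most like each silicon gene, 3 were shared for NIP2-1, 4 for NIP2-2 and 1 for Lsi2 with means as fitted, and 0 for each over the root groups alone.

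Replicate numbers showed no clear pairing of the samples: deviations of same-numbered arrays correlated at -0.114 to 0.0495 on average by stage. Single pairs varied widely, with lowest values of -0.506 in young leaves and -0.211 in mature roots, so these averages do not settle whether samples were paired. With the replicate block NIP2-1 lost its call for hybrid minus B line in mature leaves (0.8475, adjusted p = 0.0594), and NIP2-2 gained calls in flag leaves (1.525 for hybrid minus R line, -1.457 for R minus B line). The block also ended the calls of NIP2-1 in mature root minus leaf of the hybrid (adjusted p = 0.0725), of Lsi2 in hybrid minus mid-parent of mature roots (adjusted p = 0.0581) and of Lsi2 in mature root minus leaf between hybrid and B line (adjusted p = 0.0765), and gave one for NIP2-2 in the root age change between hybrid and R line (adjusted p = 0.0178). It changed no other call.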
